A study of Homo sapiens with 12 samples.

Results

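The genes described here are 9 genes of HLA class I antigen presentation, HLA-B, HLA-C, HLA-E, B2M, TAP1, TAP2, TAPBP, PSMB8, and PSMB9. They were chosen by name, as the rows of the count table with one of these symbols, and each symbol had 1 row among 60649 genes. All 9 were among the 21114 genes that had enough counts to be tested. RNA was sequenced from 12 libraries of 2 established uterine leiomyosarcoma (uLMS) cell lines without engineered changes, SK-UT-1B, which comes from a primary tumor, and SK-LMS-1, which comes from a vulvar metastasis. SK-UT-1B was exposed for 72 h to DMSO, the vehicle (libraries 4-1 and 4-2), or to MK-0752 with gemcitabine and docetaxel, called the combination below (libraries 3-1 and 3-3). SK-LMS-1 was exposed for 72 h to DMSO (libraries 2-1 and 2-3, DMSO set 2, and libraries 4-1 and 4-2, DMSO set 4), to MK-0752 alone (libraries 2-2 and 2-3), or to the combination (libraries 4-1 and 4-2). Drugs were given at the concentration that inhibits 30% (IC30), which was determined separately for each line and for MK-0752 alone and for the combination, so that MK-0752 was at a much lower dose within the combination than alone. MK-0752 inhibits gamma secretase, the protease that releases the active part of Notch receptors, gemcitabine blocks DNA synthesis, and docetaxel stabilizes microtubules. Each line is a single culture-adapted line, and no source used here says whether libraries of a group came from separate cultures, so p values measure the spread between these libraries, which may be technical.

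Class I molecules show peptides from inside the cell to CD8+ T cells. The proteasome cuts proteins into peptides, and the inducible subunits PSMB8 and PSMB9 take the place of the constitutive subunits PSMB5 and PSMB6 in the immunoproteasome. TAP1 and TAP2 form the transporter that moves peptides into the endoplasmic reticulum, where TAPBP (tapasin) bridges the transporter and empty class I molecules while peptide is loaded. HLA-B and HLA-C encode classical heavy chains, HLA-E encodes a heavy chain read mainly by NK cell receptors, and B2M encodes the light chain (beta-2 microglobulin) they share. Most of these genes respond to interferon gamma through JAK1, JAK2, and IRF1, and to the class I transactivator NLRC5, which works with the RFX proteins.

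Of the 9 genes, 8 lie on chromosome 6 of hg38, and B2M lies on chromosome 15 (44711358 to 44718851, plus strand). HLA-E (30489509 to 30494194, plus strand), HLA-C (31268749 to 31272130, minus strand), and HLA-B (31353872 to 31367067, minus strand) lie apart from TAPBP (33299694 to 33314284, minus strand). TAP2 (32821833 to 32838739, minus strand), PSMB8 (32840717 to 32844679, minus strand), TAP1 (32845209 to 32853816, minus strand), and PSMB9 (32844136 to 32859851, plus strand) are neighbors. In GENCODE v44, PSMB9 overlaps PSMB8 and TAP1 on the opposite strand and PSMB8-AS1 on its own strand. The libraries were made with a stranded kit, but whether the counts used the strand is not given in the sources used here, so the values of these overlapping genes are uncertain. HLA-B, HLA-C, and HLA-E are similar in sequence and vary between people, and how reads that fit several of them were treated is also not given.

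TAP1 and PSMB9 are neighbors, and PSMB9 but not TAP1 passed the test between the lines given below. Promoter sequences are shown for both, and for HLA-C and B2M, which encode a heavy chain and the light chain. They are the 250 bases before the main RefSeq start site (GRCh38.p14), written 5′ to 3′ on the strand of the gene, and capitals mark matches to an ISRE (interferon response element) read as GAAA, any 2 bases, and GAAA, on either strand.
TAP1 (chr6:32853705-32853954, minus strand): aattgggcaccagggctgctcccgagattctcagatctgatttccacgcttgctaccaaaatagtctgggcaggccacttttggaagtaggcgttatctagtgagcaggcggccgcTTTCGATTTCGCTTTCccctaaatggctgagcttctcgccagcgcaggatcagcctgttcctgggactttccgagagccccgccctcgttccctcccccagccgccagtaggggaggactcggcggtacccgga
PSMB9 (chr6:32853942-32854191, plus strand): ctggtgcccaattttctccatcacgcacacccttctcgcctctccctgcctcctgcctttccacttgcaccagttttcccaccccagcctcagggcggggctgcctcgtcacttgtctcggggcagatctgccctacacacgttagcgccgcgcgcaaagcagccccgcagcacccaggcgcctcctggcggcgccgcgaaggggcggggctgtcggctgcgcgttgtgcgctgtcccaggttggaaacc
HLA-C (chr6:31272093-31272342, minus strand): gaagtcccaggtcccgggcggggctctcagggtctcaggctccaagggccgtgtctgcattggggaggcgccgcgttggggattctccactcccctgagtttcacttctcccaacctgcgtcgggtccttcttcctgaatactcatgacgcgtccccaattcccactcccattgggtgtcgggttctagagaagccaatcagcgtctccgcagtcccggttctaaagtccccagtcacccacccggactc
B2M (chr15:44711267-44711516, plus strand): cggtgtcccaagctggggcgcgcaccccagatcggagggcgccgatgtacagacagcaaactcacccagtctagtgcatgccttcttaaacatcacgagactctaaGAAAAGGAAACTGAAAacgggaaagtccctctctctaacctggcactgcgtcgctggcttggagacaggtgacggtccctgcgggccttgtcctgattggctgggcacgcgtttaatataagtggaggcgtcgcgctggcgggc
RefSeq entries were found for 8 of the 9 genes. TAP1 and B2M each held 2 overlapping ISRE matches, while the windows shown for PSMB9 and HLA-C held 0, and 3.02% of the 35116 promoters in the RefSeq table held at least 1. TAPBP also held 2 matches and TAP2 held 1, while HLA-B and PSMB8 held 0. A second motif, the GAS element, read as TTC, any 3 bases, and GAA, was found in 6.57% of all promoters, and among these genes it was found only before the second start sites of TAP1 and PSMB8. The start sites of TAP1 and PSMB9 lie 488 bases apart and point away from each other. The ISRE matches of TAP1, at −134 to −119 from its start site, lie between the 2 start sites but outside the PSMB9 window. A match describes the letters only, and no binding was measured. Only these exact patterns within 250 bases were searched, so 0 matches do not show that a gene lacks an ISRE or a GAS element.

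Library totals ran from 25250057 to 40709885 counts. Levels are given as CPM (counts scaled to a common library total, with TMM factors), and levels of different genes are compared only as CPM per kb of exon. Exon length is the union of all exons of the gene in GENCODE v44, which can exceed the length of the transcripts present. Where the remaining libraries of the line predict 5 to 500 counts for a gene, 17.1% to 34.4% of such genes were at 0 in the library left over, whereas Poisson sampling gives 0.0231% to 0.0382%, so a 0 in a single library does not show that a gene is absent. Of 7 smooth muscle markers, ACTA2, CALD1, and SMTN were counted in every library, CNN1 and TAGLN were counted in every SK-LMS-1 library, MYH11 had at most 5 counts, and DES had 0 counts in all 8 SK-LMS-1 libraries and 50 to 282 in SK-UT-1B. Of the leukocyte markers, CD3E had at most 1 count in any library, ITGAM at most 25, and PTPRC at most 47. CD14 had 5 to 133 counts in SK-LMS-1 and 0 to 6 in SK-UT-1B, and it was called higher in SK-LMS-1 after DMSO (at least 31.6-fold, edgeR p adj = 0.00926). Of 4 markers of epithelia, the keratins KRT8 and KRT18 were at 87.0 to 109 and 64.3 to 144 CPM in SK-LMS-1 and at 0 and 0.212 to 1.14 CPM in SK-UT-1B. The other two were low in both lines, with at most 1.04 CPM of EPCAM in any library, 0 counts of CDH1 in all 8 SK-LMS-1 libraries, and at most 3 counts of CDH1 in SK-UT-1B. CD74, which serves class II presentation, was at 5.08 to 11.4 CPM in SK-LMS-1 and at most 0.371 CPM in SK-UT-1B, and HLA-DRA was at most 1.74 CPM in any library. What part these differences have in the results was not tested.

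To compare the lines, the 4 DMSO libraries of SK-LMS-1 were set against the 2 of SK-UT-1B. Most of the 9 genes were higher in SK-LMS-1, by 2.43-fold for HLA-B and 6.37-fold for HLA-C, whereas TAP1 differed little. Of the 9 genes, 7 were upregulated in SK-LMS-1 compared with SK-UT-1B (log2FC of at least 1 and p adj under 0.05, edgeR), and 0 were downregulated. Across all tested genes, 31.1% were called in either direction and 17.0% were called higher in SK-LMS-1. The median log2FC of the 9 genes was 2.18, and that of all tested genes was 0. In these bulk samples of single lines, fewer cells that hold the RNA and less of it in every cell cannot be told apart.

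**Figure D1:**
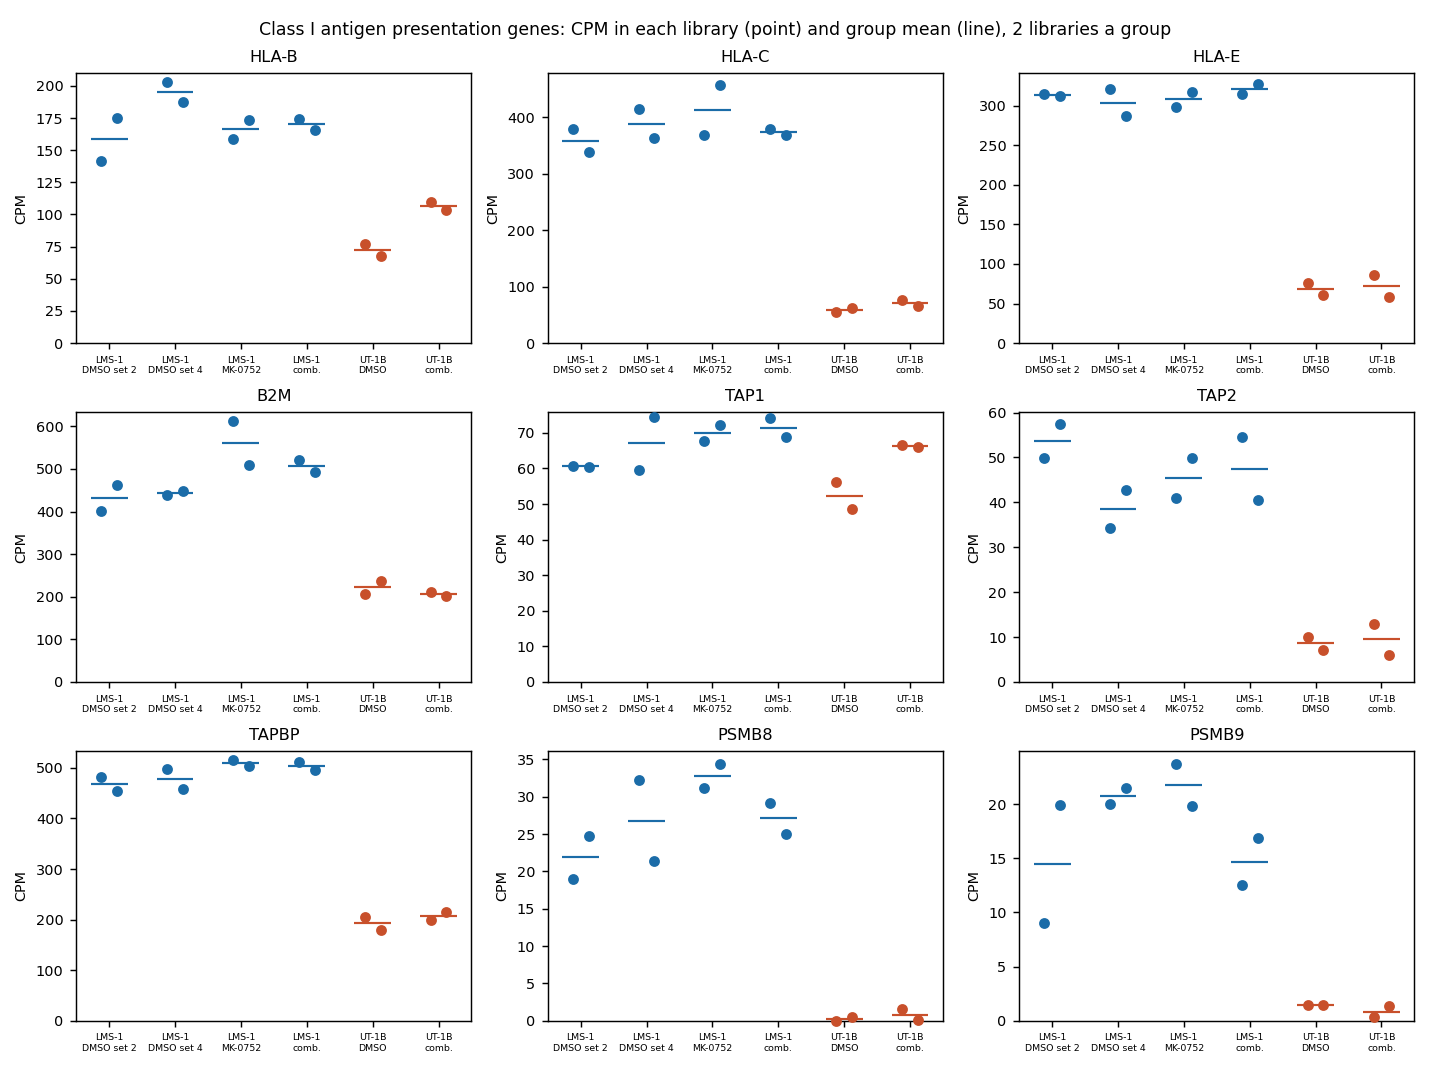
CPM of each of the 9 genes (vertical axis, linear from 0) in the 12 libraries, grouped by line and treatment (horizontal axis, LMS-1 for SK-LMS-1, UT-1B for SK-UT-1B, comb. for the combination). Points are libraries and lines are group means of 2 libraries. SK-LMS-1 lies above SK-UT-1B in every library for all genes except TAP1, whose SK-LMS-1 libraries start at 59.6 CPM and whose SK-UT-1B libraries reach 66.5 CPM. How many of all tested genes separate the lines in this way was not counted, and 31.1% were called between the lines after DMSO.

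All 3 heavy chains were upregulated in SK-LMS-1. After DMSO, HLA-C was at 379, 339, 414, and 363 CPM in libraries 2-1, 2-3, 4-1, and 4-2 of SK-LMS-1 and at 54.3 and 63.0 CPM in those of SK-UT-1B. The groups did not overlap, and log2FC was 2.67 ± 0.16 (SE), or 6.37-fold with a 95% interval of 5.08 to 7.97 (edgeR p adj = 2.5e-11). HLA-E was at 314, 312, 321, and 286 CPM in SK-LMS-1 and at 75.4 and 60.7 CPM in SK-UT-1B. Its log2FC was 2.18 ± 0.17 (edgeR p adj = 2.22e-09), again without overlap. HLA-B was at 142, 175, 203, and 188 CPM in SK-LMS-1 and at 77.1 and 67.5 CPM in SK-UT-1B. Its log2FC was 1.28 ± 0.15 (edgeR p adj = 6.05e-07), and its interval of 1.96- to 3.01-fold lies below that of HLA-C, although the difference between the genes was not tested.

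The light chain had a smaller log2FC than HLA-C and HLA-E, a difference that was not tested. B2M was at 402, 463, 439, and 448 CPM in SK-LMS-1 and at 208 and 238 CPM in SK-UT-1B. Its log2FC of 0.98 ± 0.13 had an edgeR p adj of 4.17e-06 but did not reach the threshold of 1, so B2M was not called after DMSO. Without library 2-1 of SK-LMS-1 it was 1.02, and without library 4-2 of SK-UT-1B it was 1.08, both of which pass.

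In peptide transport and loading, TAP2 and TAPBP were upregulated in SK-LMS-1, and TAP1 did not pass the test. TAP1 was at 60.7, 60.5, 59.6, and 74.5 CPM in SK-LMS-1 and at 56.2 and 48.6 CPM in SK-UT-1B. The groups did not overlap but were close, and log2FC was 0.28 ± 0.17 (edgeR p adj = 0.182), with an interval of 0.957- to 1.55-fold. TAP2 was at 49.9, 57.5, 34.2, and 42.7 CPM in SK-LMS-1 and at 9.97 and 7.19 CPM in SK-UT-1B. Its log2FC was 2.41 ± 0.30 (edgeR p adj = 2e-06). TAPBP was at 481, 454, 498, and 458 CPM in SK-LMS-1 and at 206 and 179 CPM in SK-UT-1B. Its log2FC was 1.30 ± 0.13 (edgeR p adj = 5.34e-08).

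The inducible proteasome subunits were the genes closest to 0 in SK-UT-1B. PSMB8 was at 19.0, 24.7, 32.3, and 21.3 CPM in SK-LMS-1, from 664 to 823 counts, and had 0 and 21 counts in the SK-UT-1B DMSO libraries. Its log2FC was 6.32 ± 1.19 (edgeR p adj = 0.00317), and the interval of 11.8- to 542-fold is wide, with no count in 1 of those libraries. The log2FC was 5.37 without library 4-1 of SK-UT-1B and 12.59 without library 4-2, and the latter is a fit against 0 counts that depends on the prior count. PSMB9 had 316, 550, 494, and 828 counts in SK-LMS-1, or 9.05 to 21.5 CPM, and had 41 and 54 counts in SK-UT-1B, or 1.42 and 1.43 CPM. Its log2FC was 3.6 ± 0.53 (edgeR p adj = 1.41e-05), while TAP1, whose start site is its neighbor, was not called.

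**Figure D2:**
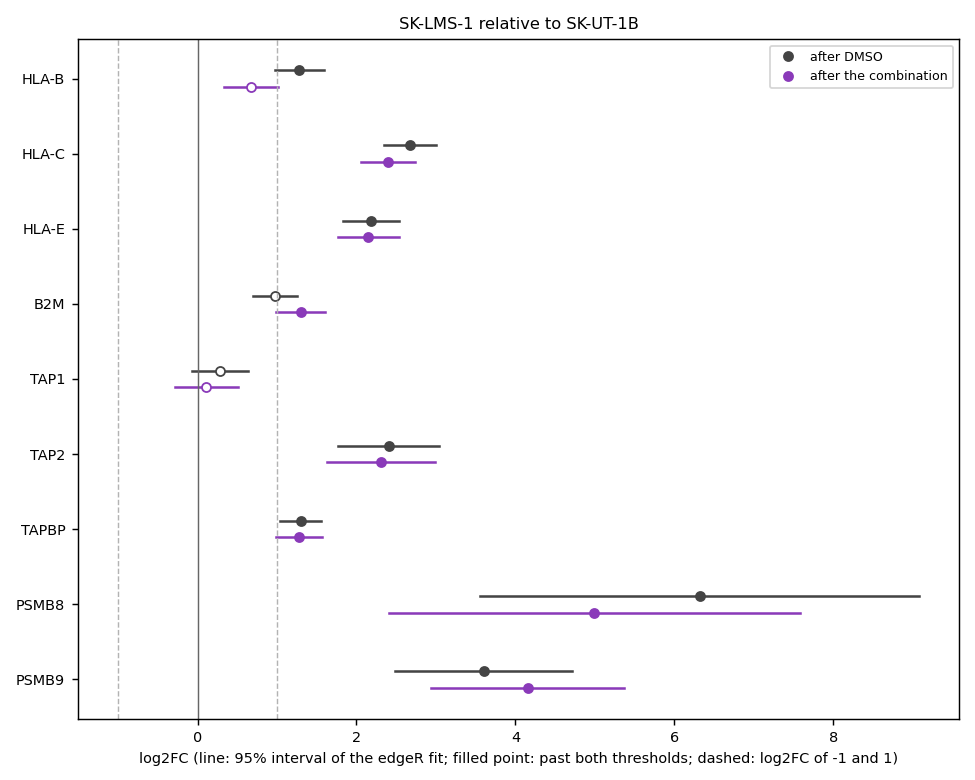
log2FC of SK-LMS-1 over SK-UT-1B (horizontal axis) for each of the 9 genes (vertical axis), after DMSO (4 against 2 libraries) and after the combination (2 against 2). Bars are 95% intervals of the edgeR fit, and filled points are genes that passed both thresholds. TAP1 has intervals that span 0, and PSMB8 has the widest.

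The same lines were compared after the combination, where SK-LMS-1 and SK-UT-1B each had 2 libraries. The first number of the library names was 4 in SK-LMS-1 and 3 in SK-UT-1B, so here the line and that number, whose meaning is not given, cannot be told apart. Again 7 of the 9 genes were upregulated in SK-LMS-1, with B2M now called and HLA-B not, where 25.4% of all tested genes were called in either direction and 15.6% were called higher in SK-LMS-1. B2M was at 521 and 492 CPM in SK-LMS-1 and at 211 and 201 CPM in SK-UT-1B, and its log2FC was 1.30 ± 0.15 (edgeR p adj = 6.13e-07). HLA-B was at 174 and 166 CPM in SK-LMS-1 and at 110 and 104 CPM in SK-UT-1B. Its log2FC was 0.67 ± 0.16 (edgeR p adj = 0.00257), which is under the threshold of 1. The other 6 called genes had log2FC from 1.28 for TAPBP to 4.99 for PSMB8, and TAP1 had 0.11 (edgeR p adj = 0.72). Libraries of SK-UT-1B moved some of these values, although the genes passed in each case. Without library 3-1, PSMB8 had a log2FC of 7.91, PSMB9 of 3.42, and TAP2 of 2.93, and without library 3-3, PSMB8 had 4.14 and PSMB9 5.47.

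Per kb of exon, the order of the genes differed between the lines. The order within a line depends on exon length, which was 2507 bases for HLA-C, 3121 for B2M, 4623 for HLA-B, and 10357 for TAP2. After DMSO, HLA-C led in SK-LMS-1 with 149 ± 12.7 CPM per kb (SD, n = 4), and its range overlapped that of B2M at 140 ± 8.36. HLA-E (106), TAPBP (71.1), HLA-B (38.3), and TAP1 (13.5) followed in that order without overlap between neighbors. PSMB8 (6.99), PSMB9 (5.28), and TAP2 (4.45) came last, and their neighboring ranges overlapped. In SK-UT-1B, B2M led with 71.3 ± 6.82 CPM per kb (SD, n = 2), followed by TAPBP at 29.0. HLA-C and HLA-E were at 23.4 and 23.3 CPM per kb and overlapped.

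Set against their constitutive counterparts, the inducible subunits made up a larger part in SK-LMS-1. The percents depend on exon lengths, such as 3480 bases for PSMB8 and 1549 for PSMB5, but the same lengths were used in both lines. PSMB8 was at 14.3% to 26.9% of PSMB5 (CPM per kb, median 19.7%, 8 libraries) in SK-LMS-1 and at 0% to 1.02% in the 4 SK-UT-1B libraries. PSMB9 was at 4.14% to 18.8% of PSMB6 in SK-LMS-1 and at 0.638% to 0.965% in SK-UT-1B. PSMB10, the inducible counterpart of PSMB7, was at 4.14% to 14.1% in SK-LMS-1 and at 0% to 3.76% in SK-UT-1B. None of these ranges overlapped between the lines. Of the constitutive subunits, PSMB5 was lower in SK-LMS-1 after DMSO (log2FC −0.67, edgeR p adj = 0.00335, under the fold threshold), while PSMB6 and PSMB7 had log2FC of 0.10 and 0.14. After the combination PSMB5, PSMB6, and PSMB7 had log2FC of −0.51 (edgeR p adj = 0.061), 0.57 (edgeR p adj = 0.418), and 0.77 (edgeR p adj = 0.0203, under the fold threshold). The highest SK-UT-1B percents for PSMB8 and PSMB10 came from combination library 3-1, where the constitutive subunits were lower than in library 3-3, at 66.7 against 94.7 CPM for PSMB5, 22.3 against 80.9 CPM for PSMB6, and 39.9 against 77.2 CPM for PSMB7.

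**Figure D3:**
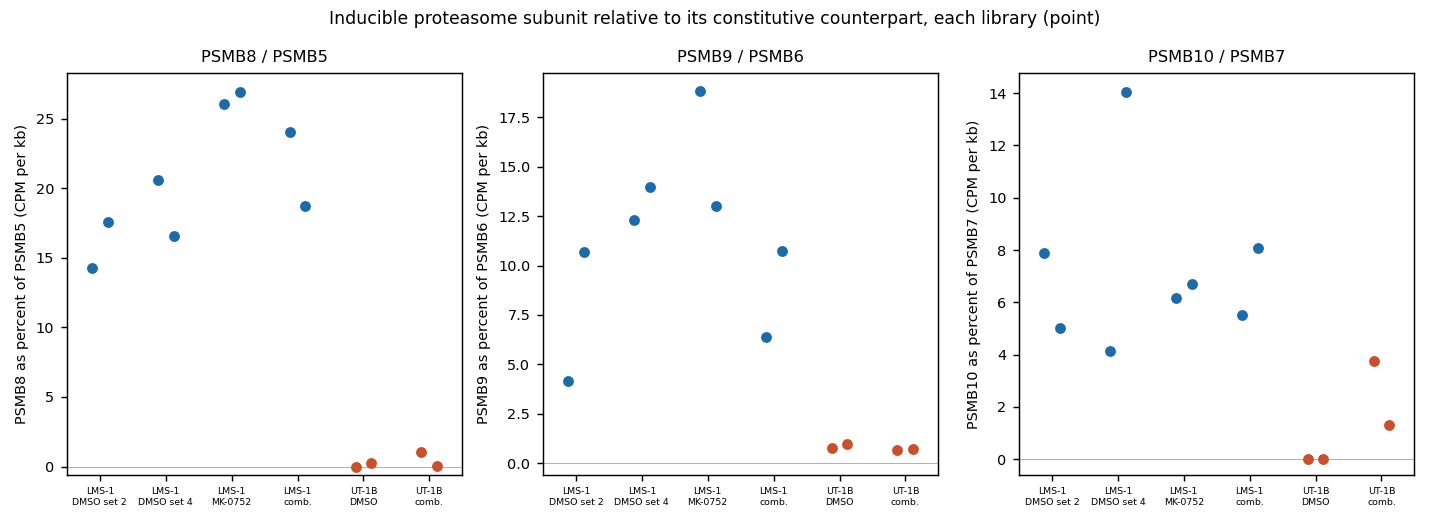
Each inducible proteasome subunit as a percent of its constitutive counterpart (vertical axes, ratio of CPM per kb) in each library (points), by line and treatment (horizontal axis). For PSMB8 over PSMB5, the 8 SK-LMS-1 libraries lie between 14.3% and 26.9% and the 4 SK-UT-1B libraries between 0% and 1.02%.

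To see whether treatment moved these genes, each treatment was compared with DMSO libraries of its line. In SK-LMS-1, treated and DMSO libraries shared the first number of their names, whereas in SK-UT-1B the combination libraries carry a 3 and the DMSO libraries a 4. So in SK-UT-1B, and in the difference of the combination effects between the lines, the treatment and the number cannot be told apart. None of the 9 genes was called in any of the 3 treatment comparisons by edgeR or by DESeq2. In all, DESeq2 called 376 genes for the combination in SK-UT-1B. It called 131 for MK-0752 and 36 for the combination in SK-LMS-1, and the shares below are those of edgeR. In SK-UT-1B, the combination gave 0 of 9 called where 0.559% of all tested genes were called, and 1 of the 9 had an unadjusted p under 0.05, as did 2214 of all 21114 tested genes. In SK-LMS-1, MK-0752 alone gave 0 of 9 against 0.251% of all tested genes, with 1 of the 9 and 1354 of all genes at an unadjusted p under 0.05. The combination gave 0 of 9 against 0.0237%, with 0 of the 9 and 914 of all genes at an unadjusted p under 0.05. The median log2FC of the 9 genes was 0.16, 0.20, and 0.08 in these comparisons, and that of all tested genes was 0, 0, and 0.03.

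**Figure D4:**
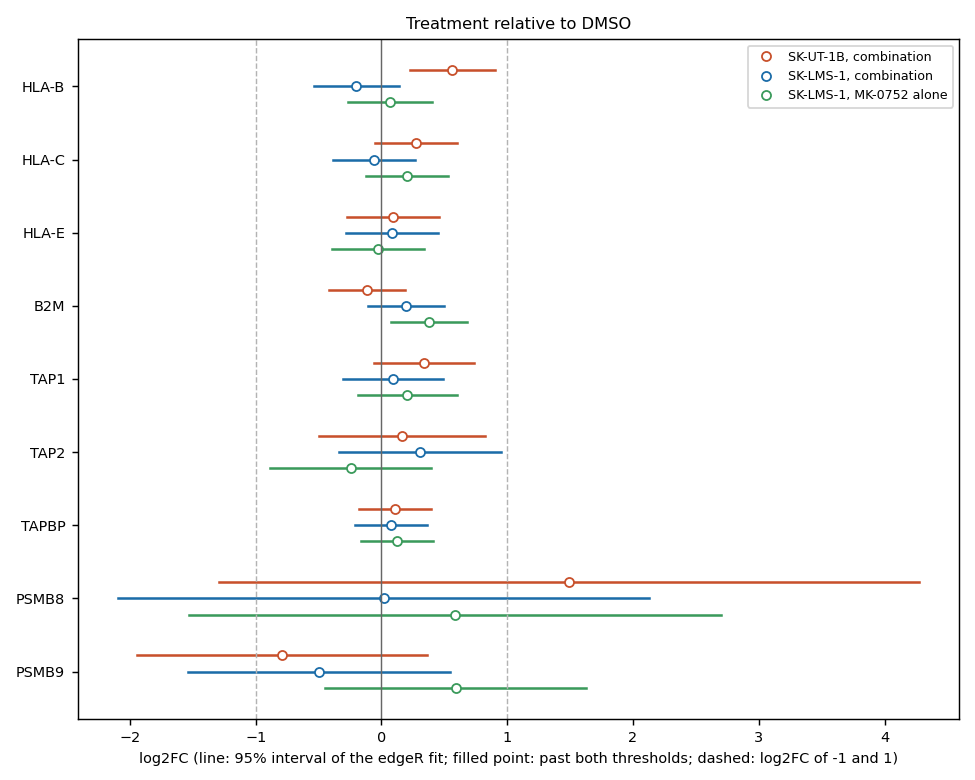
log2FC relative to DMSO (horizontal axis) of each of the 9 genes (vertical axis) for the combination in SK-UT-1B and in SK-LMS-1 and for MK-0752 alone in SK-LMS-1, with 2 libraries a group. Bars are 95% intervals of the edgeR fit, open points did not pass both thresholds, and no point is filled. Intervals for PSMB8 reach from −2.10 to 4.28 over the 3 comparisons, whereas those of TAPBP stay between −0.21 and 0.41.

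HLA-B in SK-UT-1B had the lowest unadjusted p of the 9 genes in any treatment comparison. It was at 77.1 and 67.5 CPM after DMSO and at 110 and 104 CPM after the combination, and the groups did not overlap. Its log2FC was 0.56 ± 0.16, with an interval of 1.17- to 1.86-fold (edgeR p adj = 0.137). Over 9 alternatives by edgeR or DESeq2, its log2FC ran from 0.47 to 0.62, under the fold threshold, with a lowest p adj of 0.0294. In SK-LMS-1, the same drugs gave HLA-B 174 and 166 CPM against 203 and 188 CPM in DMSO set 4, a log2FC of −0.20 ± 0.16 (edgeR p adj = 0.916). With DMSO set 2 as control (142 and 175 CPM), that log2FC was 0.10. The difference between the effects in the lines, with set 4 as control, was 0.76 ± 0.23 (edgeR p adj = 0.353). In this comparison of the effects, 0 of the 9 genes were called by edgeR or by DESeq2. Over all genes, edgeR called 0.232% of those tested and DESeq2 called 148.

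B2M had the lowest unadjusted p after MK-0752 alone. It was at 613 and 510 CPM after MK-0752 and at 402 and 463 CPM in DMSO set 2, without overlap. Its log2FC was 0.38 ± 0.14 (edgeR p adj = 0.556). Over 11 alternatives by edgeR or DESeq2, B2M had log2FC from 0.24 to 0.50, under the fold threshold, and a lowest p adj of 0.0404. After the combination in SK-LMS-1 it was at 521 and 492 CPM against 439 and 448 CPM in DMSO set 4, a log2FC of 0.19 ± 0.14 (edgeR p adj = 0.907). The test of the MK-0752 effect against the combination effect in SK-LMS-1, where the doses of MK-0752 differ, called 0 of the 9 genes, where 0.0379% of all tested genes were called.

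For the other 7 genes, the intervals give the sizes of change that these libraries leave possible. After the combination in SK-UT-1B, they were 0.965- to 1.52-fold for HLA-C, 0.825- to 1.38-fold for HLA-E, 0.96- to 1.67-fold for TAP1, 0.708- to 1.77-fold for TAP2, and 0.883- to 1.31-fold for TAPBP, all within 2-fold. PSMB8 had 0 and 21 counts after DMSO and 56 and 3 after the combination, and its interval of 0.407- to 19.4-fold leaves its direction unknown. PSMB9 had 41 and 54 counts after DMSO and 12 and 38 after the combination, with a log2FC of −0.79 ± 0.55 (edgeR p adj = 0.699). Its value turned on the combination library kept. Without library 3-1 it was −0.11 (edgeR p adj = 1), and without library 3-3, PSMB9 alone of the 9 genes was called, with a log2FC of −2.11 (edgeR p adj = 0.0423). That leaves the combination as 1 library with 12 counts, which is assumed to vary like the other groups, as is any group left with 1 library below. In SK-LMS-1, PSMB9 was at a mean of 14.7 CPM after the combination and 20.7 CPM in DMSO set 4, without overlap, and its log2FC was −0.50 ± 0.50 (edgeR p adj = 0.999). With DMSO set 2 as control (9.05 and 19.9 CPM), that log2FC was 0.021. After MK-0752 alone, PSMB8 was at 31.2 and 34.4 CPM against 19.0 and 24.7 CPM in DMSO set 2, without overlap. It did overlap DMSO set 4 (32.3 and 21.3 CPM). Over 11 alternatives by edgeR or DESeq2, its log2FC ran from 0.29 to 0.79, with a lowest p adj of 0.31. TAP1 and TAPBP also did not overlap DMSO set 2 after MK-0752, and neither was called. PSMB9 was at 23.7 and 19.8 CPM after MK-0752, and its log2FC against set 2 ran from 0.13 to 1.27 with 1 library left out. The DMSO sets of SK-LMS-1, compared with each other, gave 0 of the 9 genes and 0% of all tested genes called by edgeR. At an unadjusted edgeR p under 0.05 there were 0 of the 9 and 1197 of all tested genes. DESeq2 called 0 of the 9 genes and 33 genes in all.

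Of 23 other genes of the pathway, 3 were upregulated by the combination in SK-UT-1B and 0 were downregulated, where 0.559% of all tested genes were called. TAPBPL, a relative of tapasin that edits peptides, had 0 and 0 counts after DMSO and 45 and 28 after the combination, which is at least 12.1-fold higher when the floor is 3 counts per library (edgeR p adj = 0.000102). PSMB10 had 0 and 0 counts after DMSO and 50 and 26 after the combination, at least 12.5-fold higher (edgeR p adj = 0.00716). Both rest on few counts, and in the DMSO libraries of SK-UT-1B, 29.2% and 23.0% of genes with 5 to 500 expected counts were at 0, a share whose part in these calls was not tested. ERAP2, which trims peptides in the endoplasmic reticulum, had 313 and 499 counts after DMSO and 1097 and 660 after the combination. Its log2FC was 1.15 ± 0.23 (edgeR p adj = 0.0177). In a model with only the SK-UT-1B libraries, none of these 3 genes passed, with p adj of 0.474 for TAPBPL, 0.463 for PSMB10, and 0.115 for ERAP2, although the log2FC of ERAP2 was again 1.15. ERAP2 was also lost without library 4-1 of DMSO (log2FC 0.98, edgeR p adj = 0.163) and without library 3-1 of the combination (log2FC 0.93, edgeR p adj = 0.0693).

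In SK-LMS-1, 0 of the 23 genes were called after MK-0752, where 0.251% of all tested genes were called, or after the combination, where 0.0237% were. TAPBPL was at 14.5 and 17.2 CPM after the combination and at 18.7 and 17.0 CPM in DMSO set 4, and the combination effects differed between the lines for TAPBPL (edgeR p adj = 0.000867) and PSMB10 (edgeR p adj = 0.0387). The PSMB10 difference did not pass in 7 of 14 alternatives. CALR, the chaperone calreticulin, fell after MK-0752 by 0.69 on the log2 scale (edgeR p adj = 0.0345), which is under the fold threshold. With any 1 of the 4 libraries left out the log2FC was −0.77 to −0.62 and did not pass, and over all 11 alternatives p adj ran from 1.26e-07 to 0.49. After the combination CALR had log2FC of −0.69 in SK-LMS-1 (edgeR p adj = 0.229) and −0.59 in SK-UT-1B (edgeR p adj = 0.0654).

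Between the lines after DMSO, 8 of the 23 genes were called higher in SK-LMS-1 and 1 lower, where 31.1% of all tested genes were called in either direction and 17.0% higher. The count in either direction is near that share and is not read as a result about the list. In trimming and loading, ERAP2 had a log2FC of 3.17 ± 0.22 (edgeR p adj = 5.57e-10), ERAP1 had 2.11 ± 0.25 (edgeR p adj = 7.92e-07), and TAPBPL was at least 180-fold higher (edgeR p adj = 6.02e-10). In the inducible proteasome, PSMB10 was at least 70.3-fold higher, and PSME1, a subunit of the proteasome activator, had a log2FC of 1.11 (edgeR p adj = 7.05e-06). The bounds for TAPBPL and PSMB10 rest on 0 counts in both SK-UT-1B DMSO libraries, where many genes with expected counts were at 0, and these bounds cover counting error only. Of the interferon pathway, JAK1, the kinase of interferon receptors, stood apart. JAK1 was at 402, 381, 345, and 389 CPM in SK-LMS-1 and at 2.84 and 4.62 CPM in SK-UT-1B, or 82 and 174 counts, and its log2FC was 6.65 ± 0.22 (edgeR p adj = 5.63e-15). IRF1, a transcription factor induced by interferon, had a log2FC of 2.49 (edgeR p adj = 1.51e-06), and IRF2 had 1.37 (edgeR p adj = 0.000123). RFXAP, a subunit of the RFX complex, was the gene called lower, with a log2FC of −4.76 ± 0.91 (edgeR p adj = 0.00105), which reached −6.60 without library 4-1 of SK-LMS-1. JAK2, IFNGR1, IFNGR2, and NLRC5 had p adj from 0.29 to 0.821.

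**Figure D5:**
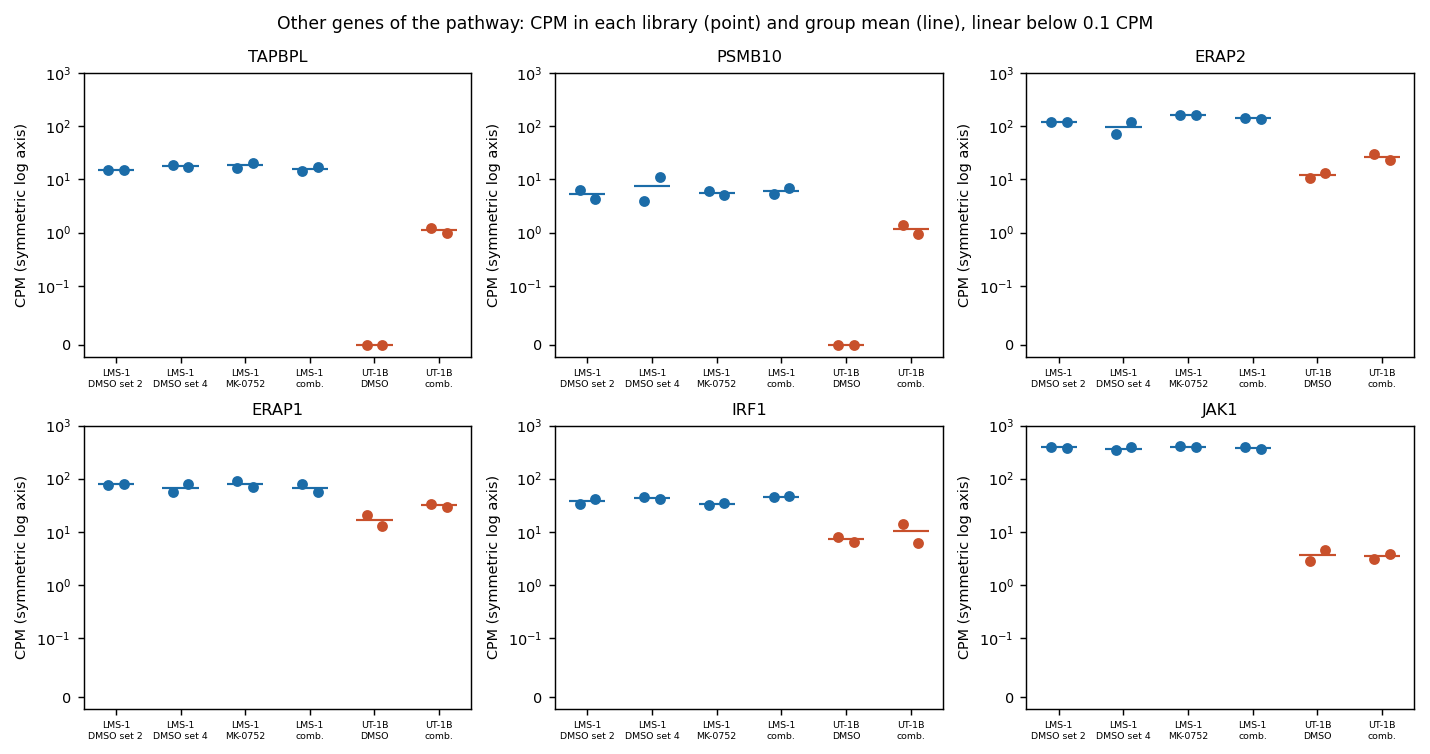
CPM of 6 other genes of the pathway (vertical axes, symmetric log scale that is linear below 0.1 CPM) in each library (points), with group means of 2 libraries (lines), by line and treatment (horizontal axis). TAPBPL and PSMB10 have 0 counts in both DMSO libraries of SK-UT-1B, and JAK1 is at 2.84 to 4.62 CPM in SK-UT-1B and at 345 to 407 CPM in SK-LMS-1.

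After the combination, 6 of the 23 genes were called higher in SK-LMS-1 and 1 lower, where 25.4% of all tested genes were called in either direction and 15.6% higher. The count in either direction is again near that share. JAK1 had 113 and 108 counts in SK-UT-1B, and its log2FC was 6.77 ± 0.23 (edgeR p adj = 9.03e-15). IRF1 had a log2FC of 2.16 (2.84 without library 3-1 of SK-UT-1B), ERAP2 of 2.40, ERAP1 of 1.09, TAPBPL of 3.83, and PSMB10 of 2.40, the last with an edgeR p adj of 0.0303. PSMB10 was lost whichever of the 4 libraries was left out (log2FC from 2.15 to 2.69, edgeR p adj from 0.0673 to 0.145), and ERAP1 was lost without library 4-1 of SK-LMS-1 (log2FC 0.81, edgeR p adj = 0.0674). RFX5, the DNA-binding subunit of the RFX complex, was the gene called lower, with a log2FC of −1.17 ± 0.26 (edgeR p adj = 0.00119). Without library 4-2 of SK-LMS-1 or library 3-1 of SK-UT-1B, its log2FC of −0.97 or −0.86 was under the fold threshold.

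The genes whose pattern was most like that of the 9 were sought among 9830 tested genes outside these lists with a mean of at least 10 CPM. With the mean of each line removed, the log2 CPM of LRP1 followed the mean z-score of the 9 genes with a Pearson r of 0.93 over the 12 libraries. SCRN2 (0.92), N4BP1 (0.91), ZMYND8 (0.91), and FOXO3 (0.91) came next. These values describe libraries that share line, depth, and treatment.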

How the data were processed

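The 12 libraries form 6 groups of 2, split by cell line and treatment. The SK-LMS-1 DMSO libraries were also split by the first number in their titles. Per the submitters' processing notes, Trim Galore 0.3.7 and STAR 2.7.9a were used with hg38. The authors trimmed adaptors, removed ribosomal RNA, and deposited raw read counts per gene from STAR, without normalization. The annotation, strand setting, and treatment of reads with several matches are not given in the sources used here. Of 60649 gene identifiers, 60507 are in GENCODE v44 without version, which gave coordinates and exon lengths.

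Counts were tested with edgeR 4.0.16 in R 4.3.3 (TMM, filterByExpr, robust quasi-likelihood fit of all 6 groups), and 21114 genes passed the filter. A gene was called if its log2FC was 1 or more in size and its Benjamini-Hochberg p adj over all tested genes was under 0.05, in 8 comparisons. CPM used TMM library sizes, and totals of 25250057 to 40709885 reads set the depth, where 3 counts were taken as the floor. Intervals are 95% intervals of the fit. The fit was tested on simulated data, and many of the genes changed there did not pass with 2 libraries a group. DESeq2 1.42.0, other filters, scalings, and controls, a replicate block, and each library left out in turn were alternatives. The members and the lists were chosen with earlier results of these data known. Genes named are the 9 members, genes of a list of 23 others of the pathway where called, constitutive and marker genes, and the 5 genes most like the members. Others were named where a comparison turned on their values. Some genes of the lists are not reported here.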

Additional observations from a re-analysis of the deposited data

Results flagged for a closer look

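Among the 4 DMSO libraries of SK-LMS-1, TAP1 in library 4-2 was at 74.5 CPM and lay far above the other 3, which were within 59.6 to 60.7 CPM. PSMB9 in library 2-1 was at 9.05 CPM and lay far below the other 3, at 19.9 to 21.5 CPM. Such a gap is expected by chance in about 1 of 20 groups of this size, and 9 genes were looked at. The combination effect in SK-UT-1B minus that in SK-LMS-1 passed the test for TAPBPL, with a difference in log2FC of 8.34 (edgeR p adj = 0.000867), and for PSMB10, with 8.55 (edgeR p adj = 0.0387). Both fitted values depend on the prior count, since the DMSO libraries of SK-UT-1B had 0 counts. For PSMB10, 7 of 14 alternatives did not pass, with p adj from 0.00205 to 0.255 over all of them, while TAPBPL passed in all 14, with p adj from 5.21e-08 to 0.0121.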

How the results depend on the processing

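The number of members called was 7 after DMSO and 7 after the combination between the lines, and 0 in the other 6 comparisons, under every alternative run except those that left out a library. Those gave 7 to 8 between the lines after DMSO, 7 after the combination, 0 to 1 for the combination in SK-UT-1B, and 0 in the others. Counts over all tested genes moved more. In the order of the combination in SK-UT-1B, MK-0752 in SK-LMS-1, the combination in SK-LMS-1, the difference of the combination effects between the lines, the MK-0752 effect minus the combination effect, and DMSO set 4 against set 2, the numbers of genes called were 118, 53, 5, 49, 8, and 0. They were 376, 131, 36, 148, 40, and 33 with DESeq2 and 420, 175, 73, 303, 89, and 76 without a filter beyond 1 count. With a minimum mean of 50 counts they were 35, 1, 24, and 3 in the second to the fifth. Only the libraries of the comparison gave 189, 9, 26, 67, and 9 in the second to the sixth. All 4 DMSO libraries as control gave 13 in the fifth, and DMSO set 2 as control gave 0 in the third. Libraries left out in turn gave 140 to 812, 14 to 45, 0 to 29, 21 to 498, 3 to 22, and 0 to 39, and between the lines 5697 to 6386 and 4456 to 5086. The 812 and 498 came without library 3-3 of SK-UT-1B. The cause was not tested. The replicate numbers 4-1 and 4-2 did not pair the SK-LMS-1 libraries (r = −0.02 over 9866 genes), and the replicate block left 2 genes called for the combination in SK-LMS-1 and 0 members.

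Without TMM, HLA-E and TAPBP were at 292 and 447 CPM in SK-LMS-1 DMSO and PSMB9 at 1.56 CPM in SK-UT-1B DMSO. Members that changed sign passed in no setting where they did so. For the combination in SK-LMS-1, PSMB8 had log2FC of −0.022 with DESeq2, −0.021 with its size factors, −0.021 without a filter, −0.022 with only the libraries of the comparison, and −0.035 at a mean of 50 counts or more. With DMSO set 2 as its control, HLA-B had 0.10, HLA-C 0.057, TAP2 −0.18, and PSMB9 0.021. For MK-0752, HLA-B had −0.082 against all 4 DMSO libraries and −0.23 against set 4, where HLA-E had 0.020 and TAP2 0.24. With all 4, TAP2 had 0.098 in the difference between the lines, and HLA-B and TAP1 had −0.034 and −0.032 in the MK-0752 effect minus the combination effect. With libraries left out, the following was seen. For DMSO set 4 against set 2, log2FC of members that changed sign ranged as follows: B2M −0.062 to 0.14, HLA-E −0.13 to 0.036, PSMB8 −0.037 to 0.56, TAP1 −0.023 to 0.30, TAPBP −0.029 to 0.092. For MK-0752 in SK-LMS-1, log2FC of members that changed sign ranged as follows: HLA-B −0.074 to 0.23, HLA-E −0.071 to 0.021. For the combination in SK-LMS-1, log2FC of members that changed sign ranged as follows: HLA-C −0.15 to 0.042, PSMB8 −0.25 to 0.34, TAP1 −0.061 to 0.26. For the combination in SK-UT-1B, log2FC of members that changed sign ranged as follows: HLA-E −0.25 to 0.35, PSMB8 −1.51 to 7.76, TAP2 −0.51 to 0.60. For the difference of the combination effects between the lines, log2FC of members that changed sign ranged as follows: HLA-E −0.30 to 0.27, PSMB8 −1.49 to 7.75, PSMB9 −1.61 to 0.42, TAP2 −0.78 to 0.30, TAPBP −0.069 to 0.13. For the MK-0752 effect minus the combination effect, log2FC of members that changed sign ranged as follows: TAP1 −0.055 to 0.27, TAPBP −0.014 to 0.11. Groups of 2 and the many genes at 0 limit which changes can be seen.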
